A study of Arabidopsis thaliana with 24 samples.

Results

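The libraries labelled vq1 were compared with those of the accession Col-0 (Col) after 4 h at 1% oxygen, in whole Arabidopsis thaliana seedlings. The 6 libraries, 3 biological replicates of vq1 and 3 of Col, were taken by their labels from the 24 of the series. Of the 23929 genes in the files, 20110 had enough reads for a test. Each genotype also has 3 libraries at 21% oxygen (normoxia), and vq10 and the double mutant vq1vq10 have 3 at each oxygen level. The series title calls the mutants hypermorphic, a word for an allele with more activity than the normal one. All groups grew for 14 days on MS medium with 1% sucrose in long days and were then kept for 4 h in dim light on day 15, at 1% or 21% oxygen. The kind of lesion, its insertion or promoter and the number of independent lines behind each label are not stated in the labels.

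VQ proteins are small plant proteins named for a conserved valine and glutamine in a short motif, and many of them bind WRKY transcription factors. In low oxygen, plant cells cannot run respiration at full rate and turn to fermentation. Group VII ethylene response factors, which are broken down through an N-degron when oxygen is present, then persist and switch on a core set of genes for ethanol fermentation, sugar use and oxygen sensing. Whole seedlings answer as a mixture of leaf, stem and root cells, so that in these bulk libraries fewer cells of a type and less RNA per cell cannot be told apart.

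At 1% oxygen 17 of 20110 genes (0.0845%) had an adjusted p under 0.05 in edgeR for vq1 against Col, 5 higher (0.0249%) and 12 lower (0.0597%) in vq1, and 1100 had an unadjusted p under 0.05 (504 higher, 2.51%, and 596 lower, 2.96%). The largest decreases among the 17 were those of MRD1, which is named for its lower transcript in a mutant that accumulates methionine, of QQS, an orphan gene that affects starch and protein content, and of HEI10, whose product acts in crossing over during meiosis. The largest increases among the 17 were those of AT1G75945, which encodes an uncharacterized protein, and of AT3G56210, which encodes an ARM repeat protein. No member of the 21 gene lists, the core response to hypoxia among them, of 5 marker lists or of the WRKY family was called. The fit of the 17 genes rested on a spread shared by all 24 libraries.

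The windows upstream of 3 genes are shown because these had some of the largest differences and the 250 bases before their annotated start touch no other annotated gene. They are given 5′ to 3′ in the direction of the gene, from TAIR10.1. Capitals mark the W-box letters that WRKY factors are known to bind, TTGACC or TTGACT on either strand.
AT1G75945, chr1:28515917-28516166, minus strand: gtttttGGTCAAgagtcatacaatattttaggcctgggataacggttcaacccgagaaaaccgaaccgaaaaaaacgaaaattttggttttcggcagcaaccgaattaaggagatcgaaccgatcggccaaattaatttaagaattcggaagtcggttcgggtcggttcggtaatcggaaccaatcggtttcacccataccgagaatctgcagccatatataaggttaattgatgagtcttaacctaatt
AT3G56210, chr3:20855611-20855860, minus strand: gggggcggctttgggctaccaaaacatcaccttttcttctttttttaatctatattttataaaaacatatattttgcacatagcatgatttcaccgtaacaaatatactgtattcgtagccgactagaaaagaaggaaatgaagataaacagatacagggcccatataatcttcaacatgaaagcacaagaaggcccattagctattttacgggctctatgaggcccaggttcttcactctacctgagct
QQS, chr3:12348797-12349046, plus strand: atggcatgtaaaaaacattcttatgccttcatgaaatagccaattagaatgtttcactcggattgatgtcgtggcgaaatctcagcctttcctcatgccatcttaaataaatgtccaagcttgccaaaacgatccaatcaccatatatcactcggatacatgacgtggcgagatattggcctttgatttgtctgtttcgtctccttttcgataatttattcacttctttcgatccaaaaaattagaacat
The window of AT1G75945 held 1 match and those of AT3G56210 and QQS held 0. Of the windows of all 17 genes 4 held a match, against 28.5% of the 20109 windows of tested genes. The search describes letters and not binding sites.

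The level of VQ1 does not check the label. VQ1 (AT1G17147, TAIR10.1 chromosome 1, 5863109 to 5864059) had 89, 95 and 67 reads in the vq1 libraries, against 62, 73 and 103 in the Col libraries, and the 2 groups overlapped (log2 difference 0.12, 95% interval -0.43 to 0.68, adjusted p = 0.97). The vq1 groups named here are therefore the libraries labelled vq1. VQ10 (AT1G78410), the other VQ gene of the series, had 10, 17 and 7 reads in vq1, against 4, 2 and 8 in Col (log2 difference 1.3 ± 0.51 SE, unadjusted p = 0.019, adjusted p = 0.88). Its groups overlapped at these few reads, whereas VQ10 was higher than in Col in the hypoxic libraries labelled vq10 (2.57, adjusted p = 0.023) and vq1vq10 (2.44, adjusted p = 0.031). Of the 5 annotated protein-coding genes on either side of VQ1, 9 were tested and none was called in edgeR. The largest of their differences were 0.57 ± 0.41 in GSTU25 and 0.32 ± 0.20 in GSTU24, which encode glutathione transferases, and AT1G17150 had 0 reads in these 6 libraries.

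MRD1 (AT1G53480, chromosome 1, 19963047 to 19964712, minus strand) had 0.10, 0.00 and 0.50 CPM (reads per 1000000 after TMM scaling) in vq1, against 19.8, 19.9 and 17.3 CPM in Col. These stood for 12 reads over the 3 vq1 libraries and 1151 over those of Col. The log2 difference was -6.52 ± 0.42 (adjusted p = 4.1e-09). HEI10 (AT1G53490, chromosome 1, 19963267 to 19966952, plus strand) had 1.49, 2.43 and 2.05 CPM in vq1, against 5.35, 5.33 and 5.83 CPM in Col, a log2 difference of -1.47 ± 0.20 (adjusted p = 6.0e-04). In both genes every vq1 library lay below every Col library. In the deposited TPM values HEI10 had 1.63, 2.8 and 2.46 TPM in vq1, against 4.6, 4.07 and 5.02 TPM in Col, which were apart as well but differed less (-0.99 as the log2 ratio of the means). The test on TPM gave -0.88 ± 0.19 for HEI10 (limma, adjusted p = 0.16), so the call rested on the reads. The gene models share 1446 bases on opposite strands, so reads of MRD1 and HEI10 cannot be told apart where the counting does not use strand, which is not given in the sources used here.

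QQS (AT3G30720, chromosome 3, 12349047 to 12349933) had 2.11, 0.51 and 1.1 CPM in vq1, against 9.07, 11.1 and 7.29 CPM in Col. Its groups were well apart, with a log2 difference of -2.88 ± 0.39 (adjusted p = 6.0e-04). AT3G56210 (chromosome 3, 20852380 to 20855610) had 54.9, 52.7 and 58.6 CPM in vq1, against 24, 26.4 and 23.8 CPM in Col, and rose by 1.16 ± 0.09 (adjusted p = 9.6e-08). Each vq1 library had more of this transcript than any Col library. AT2G03640, which encodes a protein with an NTF2 domain and an RNA-binding motif, had 141, 158 and 158 CPM in vq1, against 71.1, 78.5 and 95.5 CPM in Col, and rose by 0.90 ± 0.12 (adjusted p = 4.8e-04). Its model overlaps that of AT2G03630 on the other strand.

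AT1G75945 (chromosome 1, 28515245 to 28515916, minus strand) had few reads in Col and more in vq1. It had 5.65, 5.71 and 6.74 CPM in vq1, against 0.26, 0.36 and 0.05 CPM in Col, from 358 reads over the vq1 libraries and 13 over those of Col. Its log2 difference of 4.77 ± 0.67 (adjusted p = 0.0017) was the largest increase among the called genes. Per transcript length it reached a mean of 20.2 TPM in vq1, against 0.693 TPM in Col, while AT3G56210 had 49.6 TPM in vq1 and 21.4 TPM in Col.

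**Figure D1:**
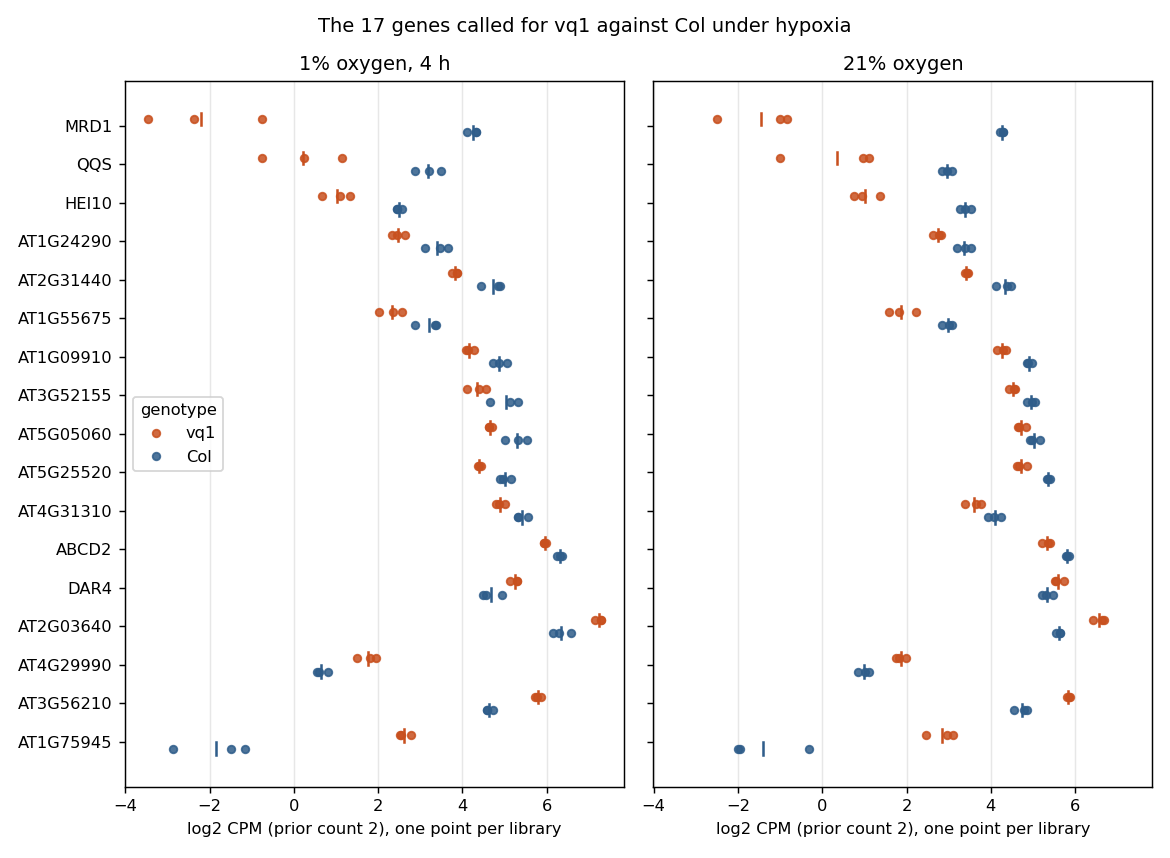
Log2 CPM of each library (points) and group mean (bars) for the 17 genes that differed between vq1 (orange, upper row of each gene) and Col (blue, lower row) at 1% oxygen, at 1% oxygen on the left and 21% oxygen on the right. The 17 were chosen by the test on these libraries at 1% oxygen, so their separation there is no further evidence. The vq1 and Col points of all 17 are apart at 1% oxygen, most widely for MRD1 (log2 difference -6.52) and AT1G75945 (4.77). Of all tested genes 3.76% had the 3 vq1 libraries above those of Col and 3.72% had them below.

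The other decreases were smaller. AT1G24290, which encodes an AAA-type ATPase, had 5.39, 4.90 and 6.09 CPM in vq1, against 11, 12.5 and 8.47 CPM in Col (log2 difference -0.96 ± 0.15, adjusted p = 0.0023). AT2G31440, which encodes a subunit of the APH1 kind known from the gamma-secretase complex, had 13.4, 14.6 and 14.5 CPM in vq1, against 28.5, 29.7 and 21.8 CPM in Col (-0.91 ± 0.12, adjusted p = 4.8e-04). In these genes the vq1 libraries lay close together and below every Col library. AT1G09910, a rhamnogalacturonate lyase gene of the kind that cuts pectin, had 19.3, 16.8 and 17.4 CPM in vq1, against 28.9, 26.2 and 33.1 CPM in Col (-0.72 ± 0.11, adjusted p = 0.0023). AT5G25520, whose product has the central domain of transcription factor S-II and a SPOC domain, had 20.5, 21.5 and 20.9 CPM in vq1, against 31.3, 29.5 and 35.6 CPM in Col (-0.62 ± 0.08, adjusted p = 4.8e-04). The 2 groups of each of these genes were apart as well on the CPM scale. The deposited TPM of AT5G25520 were 9.35 to 10.2 in the 3 vq1 libraries, against 11.1, 9.11 and 14.2 in Col, and there the groups overlapped (limma on log2(TPM + 0.5), -0.18 ± 0.12, adjusted p = 0.91). A TPM of AT5G25520 stood for 43.1 to 44.1 reads in the vq1 libraries and 54.9 to 60.2 in those of Col, after scaling each library to the median ratio of reads to TPM over genes. For HEI10 these were 17.3 to 18.4 reads in vq1 and 22.5 to 25.5 in Col. In the hypoxic vq10 and vq1vq10 libraries they were 53 to 56.5 reads for AT5G25520 and 16.8 to 23.3 for HEI10. What set the unequal ratios was not tested.

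The deposited TPM, tested with limma after the data were seen, gave 11 genes (0.0547% of all tested), all 11 among the 17. The 6 that were not called were HEI10, AT5G25520, AT1G09910 (-0.63, adjusted p = 0.055), ABCD2 (-0.31, adjusted p = 0.48), DAR4 (0.58, adjusted p = 0.24) and AT4G29990 (0.75, adjusted p = 0.11). The log2 ratio of the group means differed by less than 0.1 between TPM and CPM in 15 of the 17 genes, and by 0.40 in AT5G25520 and 0.48 in HEI10. At 21% oxygen 17 genes (0.0845%) were called on TPM, of which 14 were among the 16 called on reads. HEI10 was one of them (-1.68, adjusted p = 5.0e-05), and AT5G25520 was not (-0.37, adjusted p = 0.55).

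MRD1, HEI10, QQS, AT3G56210, AT2G03640, AT1G75945, AT1G24290, AT2G31440, AT1G09910 and AT5G25520 were called with any 1 of the 6 libraries left out. The other 7 genes were not, and their adjusted p without 1 library reached 0.25 to 0.43. Among them AT1G55675, which encodes an uncharacterized protein, averaged 4.95 ± 0.91 CPM in vq1 and 9.27 ± 1.72 CPM in Col (SD, n = 3 each; log2 difference -0.90, adjusted p = 0.036). AT3G52155, of the phosphoglycerate mutase family, averaged 20.6 ± 3.13 CPM in vq1 and 33.2 ± 7.44 CPM in Col (-0.69, adjusted p = 0.036). Both were called without Col replicate 3 or vq1 replicate 1 and in none of the other 4 fits (adjusted p up to 0.43 each). The remaining decreases were -0.65 in AT5G05060 (cystatin/monellin superfamily), -0.52 in AT4G31310 (AIG2-like family) and -0.36 in ABCD2, an ABC transporter gene with 61.4, 63.3 and 60.8 CPM in vq1, against 79.5, 76.2 and 82.1 CPM in Col. Each of these was called in 1 of the 6 fits, that without Col replicate 3, and missed the threshold in the other 5 (adjusted p up to 0.25 in AT5G05060, 0.43 in AT4G31310 and 0.27 in ABCD2).

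DAR4, also known as CHS3, encodes an immune receptor of the TIR-NB-LRR class with a LIM domain. It had 35.0, 39.0 and 38.9 CPM in vq1, against 23.4, 22.5 and 30.8 CPM in Col (log2 difference 0.56 ± 0.11, adjusted p = 0.036). It too was called in 1 of the 6 fits, that without Col replicate 3 (adjusted p = 9.1e-04), with an adjusted p up to 0.33 in the others. AT4G29990, a gene of a leucine-rich repeat kinase, had 3.39, 2.73 and 3.74 CPM in vq1, against 1.68, 1.42 and 1.37 CPM in Col (1.14 ± 0.22, adjusted p = 0.036). It was called without Col replicate 3 or vq1 replicate 2, and its adjusted p reached 0.27 in the other 4 fits. Just inside the threshold stood ABCD2 (adjusted p = 0.042) and just outside it AT5G10050, with 35.0, 35.5 and 36.6 CPM in vq1 and 46.1, 54.7 and 55.6 CPM in Col (-0.55 ± 0.11, adjusted p = 0.09).

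A fit of the 6 libraries alone, without the spread of the other 18, called 3 genes: MRD1 (adjusted p = 0.001), AT1G75945 and AT3G56210 (adjusted p = 0.0031 each). The other 14 then had adjusted p of 0.099 (QQS) or more, with unadjusted p of 0.0032 or less. On the genome, 7 of the 17 genes lay on chromosome 1, which holds 26.4% of the tested genes, 2 each on chromosomes 2 and 4 and 3 each on chromosomes 3 and 5. The models of 8 of the 17 overlap another annotated gene.

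The differences at 1% oxygen were set beside those at 21% oxygen, which come from other libraries but share the spread of the same model. At 21% oxygen 16 genes (0.0796%) passed the same test, of which 5 were higher (0.0249%) and 11 lower (0.0547%) in vq1, and 11 of them were among the 17, which is 64.7% of the hypoxic and 68.8% of the normoxic genes. All 11 had the same sign at both levels. The 6 genes called on reads at 1% but not at 21% oxygen, AT4G31310, DAR4, AT5G05060, AT1G24290, AT3G52155 and AT4G29990, also kept their sign, and in each the 3 normoxic vq1 libraries were all above or all below those of Col, as they were in 6.74% and 6.67% of all tested genes. For AT4G29990 these were 3.88, 3.48 and 3.29 CPM in vq1, against 1.72, 1.93 and 2.05 CPM in Col (log2 difference 0.90, adjusted p = 0.18). For AT5G05060 they were 25, 28.5 and 25.5 CPM in vq1, against 31.5, 30.1 and 36.2 CPM in Col (-0.31, adjusted p = 0.58). On TPM, AT4G31310 (-0.51, adjusted p = 0.012) and AT1G24290 (-0.63, adjusted p = 0.049) were called with limma at 21% oxygen as well.

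**Figure D2:**
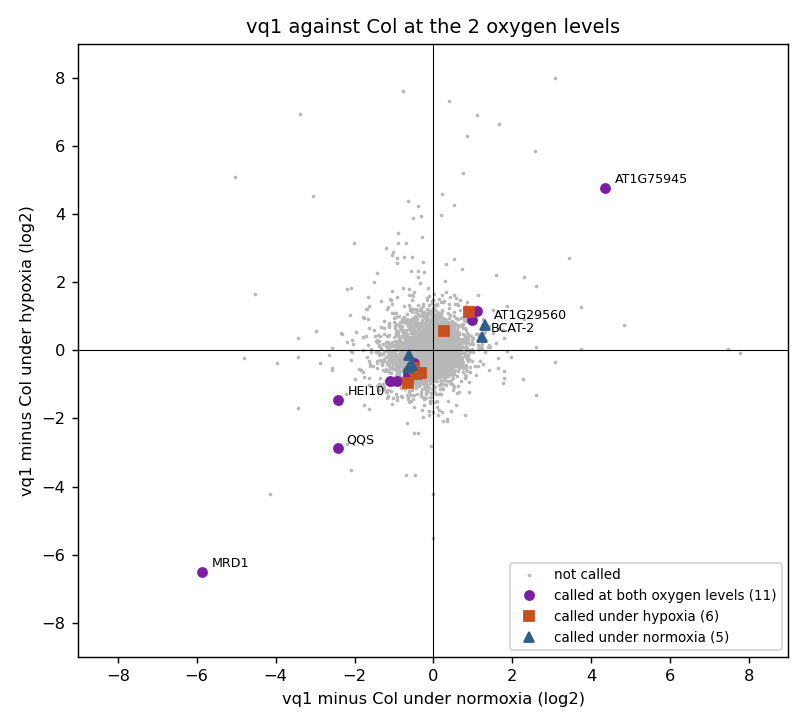
Log2 difference of vq1 minus Col at 1% oxygen (vertical) against that at 21% oxygen (horizontal) for the 20110 tested genes, each axis from 3 vq1 and 3 Col libraries of its own. The 11 genes called at both levels (purple circles) lie at the lower left and upper right, from MRD1 (-6.52 at 1% and -5.86 at 21% oxygen) to AT1G75945 (4.77 and 4.36), and most uncalled genes (grey) lie around 0 on both axes.

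The difference between the 2 oxygen levels was tested directly, as the response of vq1 to hypoxia minus that of Col, and 0 of 20110 genes passed in edgeR, with 682 at an unadjusted p under 0.05 (3.39%) and 0 in DESeq2. Of the 17 genes 2 had an unadjusted p under 0.05 in this test. HEI10 had 1.60, 2.49 and 1.83 CPM in normoxic vq1 seedlings, against 9.59, 10.4 and 11.4 CPM in normoxic Col, so that its log2 difference was -1.47 at 1% oxygen and -2.41 at 21% (difference 0.94 ± 0.27, unadjusted p = 0.0024, adjusted p = 1; on TPM 0.80 ± 0.27, unadjusted p = 0.0064, adjusted p = 1 with limma). It fell under hypoxia in Col (-0.93 ± 0.17, adjusted p = 2.0e-04), while in vq1 the value was 0.01 ± 0.21. AT5G05060 was the other, with a difference of -0.34 ± 0.16 (unadjusted p = 0.045).

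Of the 5 genes called on reads at 21% but not at 1% oxygen, BCAT-2 differed most between the levels. This gene of a branched-chain aminotransferase, which acts in the breakdown of leucine, isoleucine and valine, had 99.3, 104 and 124 CPM in hypoxic vq1 and 67.7, 95.9 and 87.1 CPM in hypoxic Col, which were apart (log2 difference 0.38 ± 0.18, adjusted p = 0.88). Under normoxia it averaged 132 ± 25.9 CPM in vq1 and 56.5 ± 9.09 CPM in Col (1.22, adjusted p = 0.0015), and the test of the difference gave -0.84 ± 0.25 (unadjusted p = 0.0028, adjusted p = 1). PAO3, a polyamine oxidase gene, averaged 15.7 ± 1.80 CPM in hypoxic vq1 and 17.3 ± 0.80 CPM in hypoxic Col (-0.13, adjusted p = 0.91), against a normoxic difference of -0.62. The others were AT1G29560, AT5G27410 and AT1G73650. AT1G29560, a CCCH zinc finger gene, had 0.76 under hypoxia and 1.3 under normoxia, and AT5G27410, of the aminotransferase kind, had -0.44 and -0.55. AT1G73650, annotated as a 3-oxo-5-alpha-steroid 4-dehydrogenase (DUF1295), had -0.48 and -0.62. All 5 had the same sign at both oxygen levels.

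Hypoxia against normoxia was called for 6 of the 17 genes in vq1 (35.6% of all tested genes) and for 7 in Col (41.8%). AT4G31310 rose most, by 1.29 ± 0.11 in vq1 and 1.32 ± 0.10 in Col, and AT2G03640 rose by 0.67 in vq1 and 0.74 in Col. ABCD2 and AT2G31440 rose in both genotypes as well, DAR4 and AT5G25520 fell in both, and HEI10 fell in Col. MRD1, QQS and AT3G56210 did not pass in either genotype, with log2 values in Col of -0.01, 0.25 and -0.11.

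The same 17 genes were read in the other mutants. The 3 mutants are compared with the same Col libraries, so that their differences from Col are not independent and are given side by side. Of the 17, 4 were called against Col under hypoxia in vq10 and in vq1vq10: MRD1 (-6.52 in vq1, -6.78 in vq10 and -5.11 in vq1vq10), QQS (-2.88, -3.50 and -3.10), HEI10 (-1.47, -0.99 and -1.02) and AT3G56210 (1.16, 1.24 and 1.19). The share called over all genes was 0.0646% for vq10 and 0.0845% for vq1vq10. The difference of AT2G03640 was 0.90 in vq1, 0.49 for vq10 (adjusted p = 0.25) and 0.58 for the double mutant (adjusted p = 0.067), and under normoxia it was called in all 3 (0.97, 0.91 and 0.85), where 0.0597% of all genes were called for vq10 and 0.0646% for vq1vq10.

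**Figure D3:**
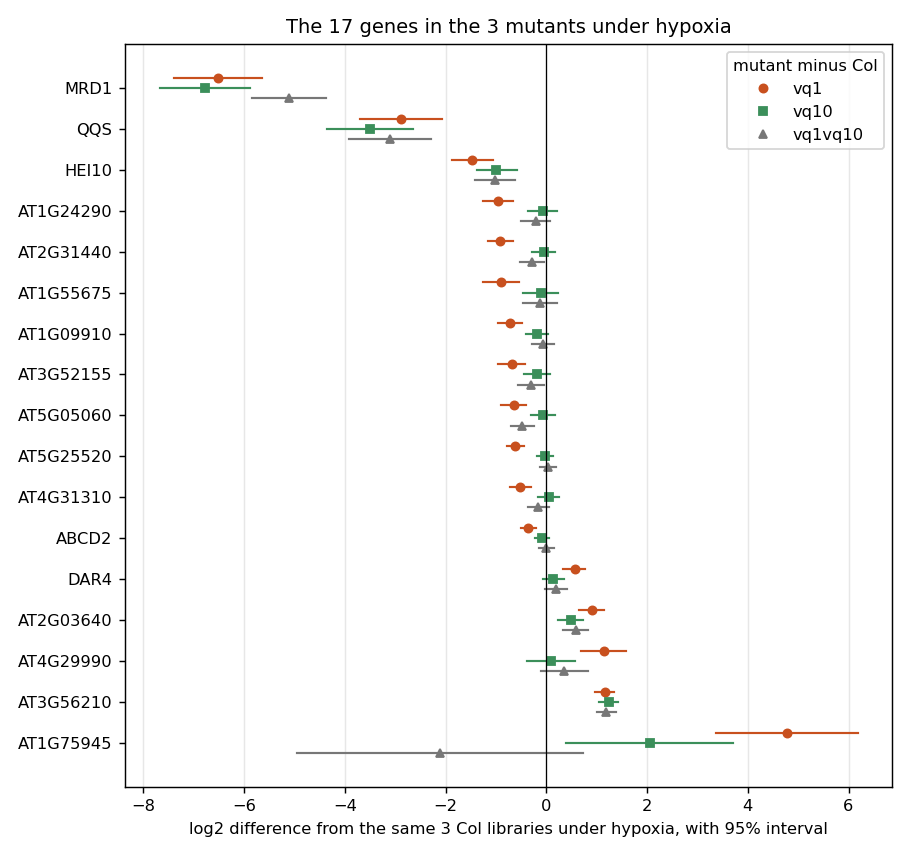
Log2 difference from Col at 1% oxygen, with 95% intervals, of the 17 genes in vq1 (orange circles), vq10 (green squares) and vq1vq10 (grey triangles), all against the same 3 Col libraries. MRD1, QQS, HEI10 and AT3G56210 were called against Col in all 3 mutants. Other genes also have the 3 mutants on the same side of 0, among them AT5G05060. It lies at -0.65 in vq1, -0.07 in vq10 and -0.48 in vq1vq10 (edgeR adjusted p = 0.21 in vq1vq10). For AT5G25520, whose call did not hold on TPM, vq1 lies at -0.62 and the other mutants at -0.03 and 0.03.

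The vq1 libraries were then tested against those of the other mutants directly. Under hypoxia 54 genes (0.269%) differed between vq1 and vq10 and 21 (0.104%) between vq1 and vq1vq10. Of the 17 genes, 8 were among the first and 6 among the second, and 5 were in both: AT2G31440, AT1G09910, AT1G75945, AT1G24290 and AT5G25520. These tests use the vq1 libraries in which the 17 were found. The count of 54 was 249 without vq10 replicate 1 and 13 to 18 without any other library, and that of 21 was 13 without vq1vq10 replicate 1. In the normoxic libraries, which entered the choice of the 17 through the spread, filter and scaling shared by all libraries, 21 genes (0.104%) differed between vq1 and vq10 and 24 (0.119%) between vq1 and vq1vq10. There, in tests chosen after values were seen, 7 of the 17 differed from both other mutants: AT2G31440, AT1G09910, AT4G31310, AT1G55675, AT1G75945, ABCD2 and AT5G25520.

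AT5G25520 had 31.1, 30.3 and 33.3 CPM in hypoxic vq10 and 33.2, 30.6 and 34.5 CPM in hypoxic vq1vq10, beside the 20.5 to 21.5 CPM of vq1. The direct differences were -0.59 ± 0.08 from vq10 (adjusted p = 0.0013) and -0.64 ± 0.08 from vq1vq10 (adjusted p = 1.7e-04). AT2G31440 differed by -0.86 ± 0.12 from vq10 (adjusted p = 0.0013) and by -0.62 ± 0.12 from vq1vq10 (adjusted p = 0.032). In both genes every hypoxic vq1 library lay below every library of the other mutants in CPM, the double mutant included. On TPM 37 genes (0.184%) differed between vq1 and vq10 and 47 (0.234%) between vq1 and vq1vq10, and 5 of the 17 were in both: AT2G31440, AT4G31310, AT1G55675, AT1G75945 and AT1G24290. AT5G25520 had 9.35 to 10.2 TPM in vq1, against 11.3 to 11.8 TPM in vq10 and 13 to 13.6 TPM in vq1vq10, and its differences were -0.22 (adjusted p = 0.37) and -0.41 (adjusted p = 0.18) with limma.

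AT1G75945 differed most between the lines. The reads were 110, 113 and 135 in hypoxic vq1, 6, 36 and 13 in vq10, and 0, 0 and 3 in vq1vq10, beside 5, 7 and 1 in Col. The vq1 reads were 133 times those of vq1vq10 after scaling, with a 95% counting interval of 45.1 to 647 that covers counting error only. Under normoxia vq1 had 125, 181 and 209 reads and vq1vq10 had 0, at least 171-fold higher in vq1 against a floor of 3 reads over the group. The test of vq1 against vq10 gave 2.72 ± 0.54 under hypoxia (adjusted p = 0.037) and 3.63 ± 0.56 under normoxia (adjusted p = 0.0043).

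For MRD1, QQS, HEI10 and AT3G56210 the direct tests of vq1 against the other mutants did not pass at either oxygen level. In AT3G56210 the interval of the hypoxic difference was -0.26 to 0.11 from vq10 and -0.21 to 0.16 from vq1vq10. In HEI10 it was -0.91 to -0.05 from vq10 (unadjusted p = 0.031) and -0.88 to -0.02 from vq1vq10 (unadjusted p = 0.04), and in MRD1 it was -1.43 to 1.95 and -2.71 to -0.11. AT5G05060 differed from vq10 (-0.59, adjusted p = 0.031) and had a difference of -0.18 from vq1vq10 (adjusted p = 0.63).

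The libraries themselves need description before the gene groups. The 6 libraries held 21313125 to 22645180 reads with TMM factors of 0.876 to 0.97, and their 10 most abundant genes took 12 to 14.2% of the reads. Nuclear photosynthesis genes summed to 225637 to 243563 CPM in vq1 and 201034 to 263709 CPM in Col. Root hair markers summed to 23.6 to 34.3 CPM in vq1 and 29.1 to 36.1 CPM in Col, so that transcripts of both kinds were present. Of the 11 root hair markers 4 (EXPA7, EXPA18, RSL4 and PRP1) were under 1 CPM in each library. Floral markers summed to at most 3.10 CPM, with AP1, AP3, PI and AG under 1 CPM in each library. Of the 5 seed storage markers 2 had 0 reads in all 6 libraries, and the list summed to 0.92, 9.45 and 0.40 CPM in vq1, against 0.73, 1.12 and 0.68 CPM in Col.

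The count of genes moved most when Col replicate 3 was left out. Without Col replicate 3, 137 of 20287 genes (0.675%) were called, 91 higher and 46 lower, and all 17 genes were among them. The count was 10 without Col replicate 1 or 2 and 11 without vq1 replicate 2 or 3. The 120 added genes were long where higher and short where lower in vq1: the median transcript length was 4552 bases for the 86 higher and 1078 bases for the 34 lower, against 1736 bases of all genes tested in that fit. An example, chosen after its values were seen, was AT4G31570, with a transcript of 8867 bases, at 50.7, 51.1 and 47.0 CPM in vq1, against 32.0, 26.6 and 53.4 CPM in Col. Another was SNL1, which encodes a scaffold of a histone deacetylase complex, at 41.2, 41.1 and 40.7 CPM in vq1, against 32.0, 27.5 and 45.2 CPM in Col. In both, Col replicate 3 stood with vq1.

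A trend with transcript length ran through all genes in these Col libraries, strongest in replicate 2 and of the other sign in replicate 3. Relative to the mean of the 24 libraries the 10% of genes with the longest transcripts had a median log2 deviation of 0.01, 0.06 and 0.03 in the vq1 libraries, against -0.11, -0.28 and 0.11 in the Col libraries. The 10% with the shortest had 0.03, -0.01 and 0.01 in vq1 and 0.07, 0.25 and -0.08 in Col. The longest minus the shortest 10% came to -0.18, -0.53 and 0.19 in Col replicates 1, 2 and 3. Of the 24 libraries Col replicate 2 had the strongest trend. The libraries of the other groups lay between -0.20 and 0.15. The vq1 libraries were alike in this measure and the Col libraries differed among themselves, so that the median difference between genotypes was 0.12 in the longest 10% (3116 bases or more) and -0.07 in the shortest 10% (924 bases or fewer), and 0.01 and -0.03 under normoxia. With each library's trend on transcript length taken out, 14 genes were called with all libraries and 19 without Col replicate 3, and 4 of the 120 added genes were among the 19. With all libraries 4 of the 17 were no longer called. Of these AT1G55675 had a log2 difference of -0.83 with the trend taken out and -0.90 without that (adjusted p = 0.059), AT4G31310 had -0.45 and -0.52 (adjusted p = 0.1), and AT4G29990 had 1.06 and 1.14 (adjusted p = 0.1), so that each moved by less than 0.1. DAR4 moved more, with 0.39 and 0.56 (adjusted p = 0.21). MRD1 (-6.46), QQS (-2.81), AT3G56210 (1.17) and AT1G75945 (4.85) were still called. What set the trend was not tested.

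**Figure D4:**
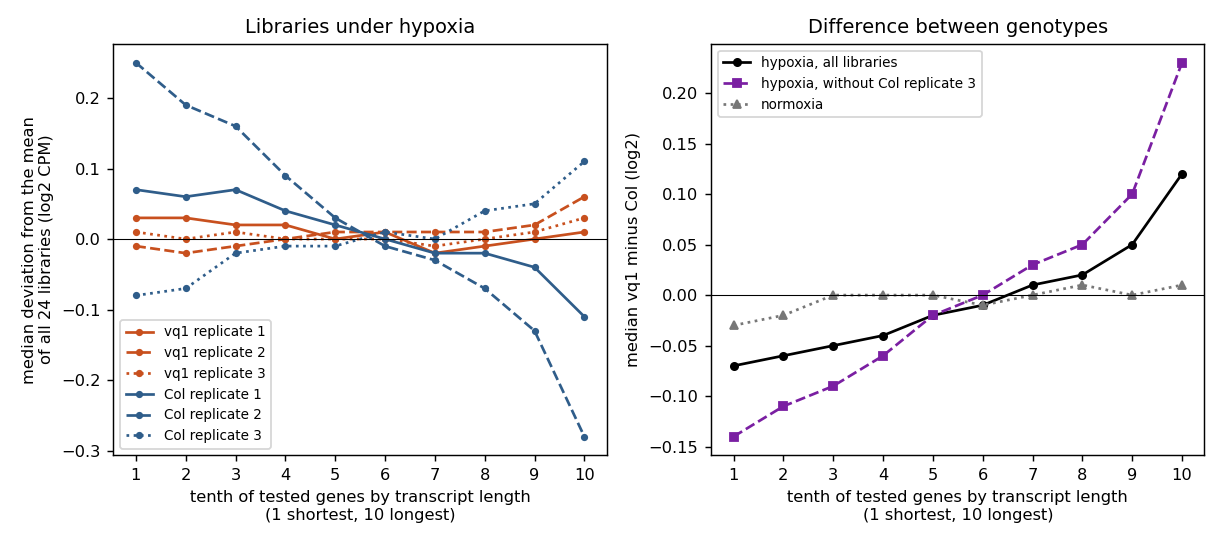
Left, median deviation in log2 CPM from the mean of the 24 libraries for the tested genes in 10 equal classes of transcript length, for the 3 vq1 (orange) and 3 Col (blue) libraries at 1% oxygen; right, median log2 difference of vq1 minus Col in the same classes with all libraries, without Col replicate 3 and under normoxia. The vq1 lines stay near 0 and the Col lines fan out to -0.28, -0.11 and 0.11 in the longest class.

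The gene lists were described by their counts and medians, beside the whole table, where 3.72% of tested genes had all 3 vq1 libraries below all 3 of Col, 3.76% had them above, and the median log2 difference was 0.00. Of the 50 core hypoxia genes 0 were called in edgeR, with 9 at an unadjusted p under 0.05, all 9 lower in vq1. Their median log2 difference was -0.23, 45 of the 50 values were negative, and 9 genes (18%) had all vq1 libraries below those of Col. Summed over the list, the 3 vq1 libraries held 7549, 7267 and 8157 CPM and the 3 Col libraries 7868, 8987 and 9157 CPM, which overlapped. The median was -0.12 without Col replicate 3, -0.35 without Col replicate 1 and between these without any other library, -0.20 with length taken out, and -0.18 under normoxia.

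Single core genes were as follows, those after ADH1 chosen after their values were seen. ADH1, the alcohol dehydrogenase of ethanol fermentation, had 843, 754 and 926 CPM in vq1, against 839, 830 and 1119 CPM in Col (log2 difference -0.14, 95% interval -0.72 to 0.43). AT1G33055 (HUP32), a hypoxia-responsive gene of unknown function, had 37.6, 38.5 and 42.7 CPM in vq1, against 48.4 to 53.4 CPM in Col (-0.35, unadjusted p = 2.2e-04, adjusted p = 0.18). AT5G10040 (HUP9), another of these, had 7.81, 9.15 and 11.3 CPM in vq1, against 13.2, 14.2 and 16.7 CPM in Col (-0.64, adjusted p = 0.59). The groups of both HUP genes were apart and those of ADH1 overlapped. PFK6, a phosphofructokinase gene of glycolysis, had 33.5, 32.3 and 36.5 CPM in vq1, against 39.6, 46.4 and 38.5 CPM in Col (-0.28, adjusted p = 0.82). In vq10 and vq1vq10 the differences of these 4 genes from the same Col libraries were 0.06 and 0.28 for ADH1, -0.09 and 0.17 for AT1G33055, -0.29 and 0.11 for AT5G10040, and -0.05 and -0.06 for PFK6.

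The most highly expressed member of the core list, AT4G27450 (HUP54), was at 1972, 1814 and 1822 CPM in vq1, against 2021, 2086 and 1758 CPM in Col, and overlapped. Fermentation and sugar catabolism genes had 0 of 18 called and a median of -0.14 (-0.01 without Col replicate 3, -0.09 without vq1 replicate 2 and -0.21 without vq1 replicate 3). Their most abundant member, GAPC2, a glyceraldehyde-3-phosphate dehydrogenase gene, had 1564, 1499 and 1757 CPM in vq1, against 1707, 1975 and 1867 CPM in Col. Oxygen sensing and group VII ERF genes had 0 of 16 called and a median of -0.15 (-0.02 without Col replicate 3 and -0.04 without Col replicate 2). Of their values 6 were positive and 10 negative, and the 1 member with an unadjusted p under 0.05 in edgeR was higher in vq1. RAP2.2, a group VII ERF chosen after its values were seen, had 54.5, 61.1 and 61.0 CPM in vq1, against 68.7, 76.8 and 75.2 CPM in Col (-0.32, unadjusted p = 0.072 in edgeR). EBP (RAP2.3) had 132, 122 and 137 CPM in vq1, against 119, 179 and 173 CPM in Col.

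**Figure D5:**
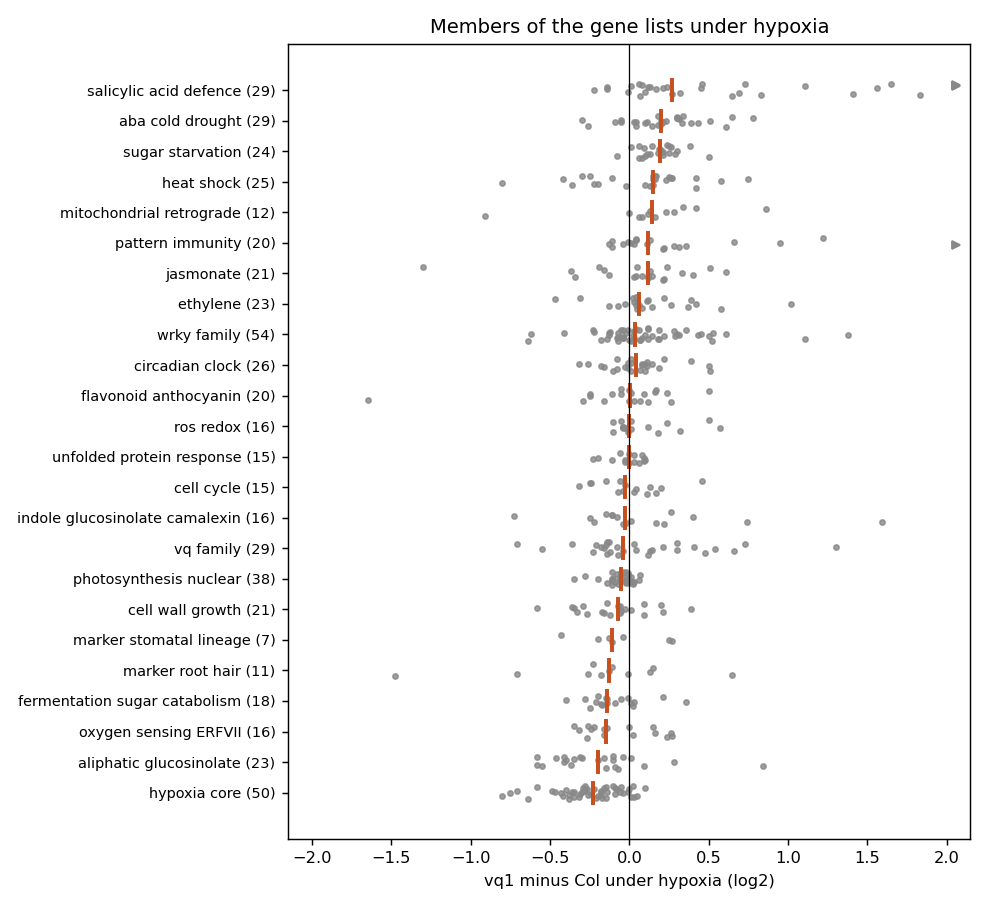
Log2 difference of vq1 minus Col at 1% oxygen for each tested member (grey points, number in brackets) of the 24 gene lists with at least 5 of them, ordered by their median (orange bars); 3 points beyond 2 are drawn as triangles at the edge. The medians run from -0.23 in the core hypoxia genes to 0.27 in the salicylic acid genes, and no member was called.

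Sugar starvation genes, which are known to be induced when carbon runs short, had 0 of 24 called, a median of 0.19 (0.39 under normoxia) and 23 positive values, and 4 genes (16.7%) had all vq1 libraries above those of Col. The median lay between 0.11 (without Col replicate 1; 0.12 without vq1 replicate 3) and 0.26 with 1 library left out. Among their abundant members were DIN10, a raffinose synthase gene, with 1587, 2101 and 2246 CPM in vq1, against 1386, 1672 and 2058 CPM in Col, and AT4G35770 (SEN1), with 1698, 1556 and 1513 CPM in vq1, against 1236, 1721 and 1360 CPM in Col. Both overlapped. ASN1, an asparagine synthetase gene chosen after its values were seen, had 1808, 1939 and 1836 CPM in vq1, against 1579, 1733 and 1613 CPM in Col (0.18, adjusted p = 0.91), and its groups were apart.

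Of the genes of aliphatic glucosinolates, defence compounds built from methionine, 0 of 23 were called. Their median was -0.20 under hypoxia and -0.84 under normoxia, 19 of the 23 hypoxic values were negative, and 4 genes (17.4%) had all vq1 libraries below those of Col. The hypoxic median was -0.35 without vq1 replicate 1, -0.30 without Col replicate 1 and -0.16 to -0.21 without any other library. MAM1, an enzyme of methionine chain elongation, had 166, 111 and 105 CPM in vq1, against 141, 173 and 110 CPM in Col. MYB28, a regulator of the pathway chosen after its values were seen, had 22.8, 17.8 and 20.9 CPM in vq1, against 23.7, 23.5 and 23.3 CPM in Col (-0.20, adjusted p = 0.89). MAM1 overlapped and MYB28 did not.

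Salicylic acid defence genes had 0 of 29 called and a median of 0.27, and 25 of the 29 values were positive. Here 1 library, vq1 replicate 2, stood apart: the list summed to 268, 376 and 246 CPM in vq1, against 237, 225 and 266 CPM in Col, and the median without vq1 replicate 2 was 0.04, against 0.46 without vq1 replicate 1 and 0.49 without vq1 replicate 3. BGL2 (PR2), a glucanase gene and marker of this response chosen after its values were seen, had 1.34, 42.7 and 0.15 CPM in vq1, against 0.05, 0.25 and 0.05 CPM in Col (adjusted p = 0.72). RLP23, an immune receptor gene from the list of pattern-triggered immunity, likewise chosen, had 0.82, 6.72 and 0.25 CPM in vq1, against 0.21, 0.15 and 0.05 CPM in Col (adjusted p = 0.57). That list had a median of 0.12, with 0.04 without vq1 replicate 2, 0.08 without Col replicate 2, 0.25 without vq1 replicate 1 and 0.20 without Col replicate 3. The seed markers were highest in the same library. Their part in these values was not tested.

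The 54 tested genes with a WRKY symbol had 0 called, a median of 0.04 and 4 genes (7.41%) with all vq1 libraries above those of Col. They were taken by symbol, and which of them bind VQ proteins was not tested. WRKY15 had 89.9, 101 and 92.9 CPM in vq1, against 84.5, 98.0 and 85.8 CPM in Col, and WRKY33, which acts in defence against fungi, 46.9, 51.1 and 33.7 CPM in vq1, against 32.9, 32.8 and 37.1 CPM in Col. Both overlapped. The 29 tested VQ family genes had 0 called and a median of -0.04, and AT1G28280 (VQ4) and AT3G56880 (VQ24), the highest over all 24 libraries, were at -0.13 and -0.18 with groups that overlapped.

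The other lists had medians between -0.13 and 0.20 where at least 5 members were tested, with 0 called. Clock genes had a median of 0.04 with 3 of 26 members all above and 2 all below Col. Among the 2, PCL1 (LUX), a subunit of the evening complex chosen after its values were seen, was at 23.5, 23.8 and 27.7 CPM in vq1, against 28.5, 35.1 and 30.2 CPM in Col (-0.32, adjusted p = 0.51). Abscisic acid, cold and drought genes had a median of 0.20 that was -0.21 without vq1 replicate 1, 0.08 without Col replicate 2 and up to 0.39 (without Col replicate 1) otherwise. Heat shock genes had one of 0.15 that was -0.15 without vq1 replicate 1, 0.01 without Col replicate 3, 0.09 without vq1 replicate 2 and 0.29 without vq1 replicate 3. The jasmonate median of 0.12 was -0.07 without vq1 replicate 2, 0.07 without vq1 replicate 1 and up to 0.18 otherwise. Photosynthesis genes (-0.05), cell cycle genes (-0.03), flavonoid genes (0.01), ethylene genes (0.06) and the unfolded protein response (0.00) were near the median of all genes, and lay between -0.14 and 0.16 without any 1 library.

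The 2 members of each list with the highest mean log2 CPM over all 24 libraries overlapped between the hypoxic groups in all but 2 cases. In PRR7, a clock repressor (0.19, adjusted p = 0.88), and RBR1, the retinoblastoma-related cell cycle repressor (0.17, adjusted p = 0.88), the vq1 libraries were above those of Col. Of all tested genes 3.76% had all vq1 libraries above those of Col and 3.72% had them below, so 2 such cases are not unusual. Others were NPR1 (0.06), the salicylic acid receptor, MPK3 (0.04), a kinase of immune signalling, LOX2 (0.14) and AOS (0.05), enzymes of jasmonate synthesis, SUR1 (-0.07), a glucosinolate enzyme, and EIN3 (0.05), the factor of ethylene signalling. CAB1 (-0.06) and RBCS1A (-0.11), of light harvesting and carbon fixation, HSP70 (-0.02), COR47 (0.18), C4H (-0.05) and PAL2 (0.07), both of phenylpropanoid synthesis, and RCD1 (0.26) were not called either.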

How the data were processed

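The analysis covered RNA-seq of whole seedlings in 8 groups of 3 biological replicates, with groups taken from the labels. TAIR10 is the build, and HISAT2 2.0.4 and DESeq2 are the tools, that are listed per the submitters' processing notes, with no role given. How reads were assigned to genes and whether strand was used is not given in the sources used here. The values of each gene, per the file headers, are read_count, TPM and FPKM. The deposited read_count values are estimated counts, made by the authors without normalization, since 525 to 581 genes per library were not whole, and were rounded to whole reads. The deposited TPM, scaled by the authors to transcript length and depth, served to compare levels between genes and as an alternative scale; FPKM was not used. Reads per library were 21313125 to 22645180 in the 6 libraries compared.

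One edgeR 4.0.16 quasi-likelihood model (R 4.3.3, TMM scaling, filterByExpr, one term for each group) used all 24 libraries (common dispersion 0.0161). Benjamini-Hochberg adjusted p under 0.05 over 20110 genes is a call, ± beside a log2 difference is its standard error, and intervals are 95%. The fits were tested on simulated data that held no trend of single libraries with length. For vq1 against Col under hypoxia edgeR recovered 40% of the 1.5-fold, 68% of the 2-fold and 90% of the 4-fold changes. It made 11 false calls among the unchanged genes. The test of the response difference was not simulated. All 23929 loci matched the TAIR10.1 annotation, the source of names, positions, transcript lengths (longest mRNA) and sequences.

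The members and lists were chosen with earlier results of these data known. Named were VQ1, VQ10, the 5 genes on either side of VQ1, all genes called under hypoxia (at most 40) and under normoxia (at most 25), and from each list up to 4 called members or the 2 highest expressed over the 24 libraries; others are said to be chosen after their values were seen. AOP2 and AOP3 of the glucosinolate list were not analysed here. The alternatives were RLE factors, no low-count filter, DESeq2 1.42.0, only the compared libraries, the replicate number as a block, leaving out each library, and, added after the data were seen, offsets that take out each library's lowess trend on log2 transcript length, and limma 3.58.1 (trend) on log2(TPM + 0.5) of the same genes.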

Additional observations from a re-analysis of the deposited data

How the results depend on the processing

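The count of genes called for vq1 against Col under hypoxia, 17, was 26 with DESeq2, which included all 17, and 3 with the 6 compared libraries only. It ranged from 10 to 137 with 1 library left out (10 without Col replicate 1 or 2, 137 without Col replicate 3, 11 without vq1 replicate 2 or 3). The other comparisons gave 47 with DESeq2 and 12 to 18 with 1 library left out, against 16, for vq1 against Col under normoxia. For vq1 against vq10 under hypoxia they gave 293 with DESeq2, 26 with the compared libraries only and 13 to 249 with 1 left out (249 without vq10 replicate 1), against 54. For vq1 against vq1vq10 they gave 76 with DESeq2, 116 with the compared libraries only and 13 to 19 with 1 left out, against 21. The deposited TPM, tested with limma and added after the data were seen, gave 11 genes for vq1 against Col under hypoxia and 47 for vq1 against vq1vq10. The cause of these shifts was not tested. For the response difference 0 genes were called in edgeR, DESeq2 and limma under every setting run. Replicate numbers were not taken as pairs in the main fit. Under hypoxia the deviations of vq1 and Col libraries of the same number correlated at 0.258, -0.0106 and 0.21. Those of different numbers correlated at -0.249 to 0.0433. Under normoxia the same-number values were 0.0847, -0.00434 and -0.082. What set these correlations was not tested. A replicate block gave 14 genes, of which 12 were among the 17. AT4G31310, AT1G55675, DAR4 and AT4G29990 (edgeR adjusted p = 0.052 each) and ABCD2 (0.076) were then not called. Of the 17 genes, 3 were called in all 14 alternatives on the reads, 7 in all but the fit of the 6 libraries, and 7 in 3 to 9 of them; none changed sign, on TPM either. A group without reads allows up to 3 reads.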
